A study of Mus musculus with 7 samples.

Results

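Cohesin without CTCF inside gene bodies was described here from ChIP-seq of livers of untreated male CD-1 mice (Crl:CD1(ICR), an outbred stock, 8 weeks of age), in which chromatin from isolated, crosslinked liver nuclei was recovered with an antibody to Rad21, a cohesin subunit, in 3 libraries, or to CTCF in 4 libraries. By the study's methods the libraries represent 4 livers, and 1 CTCF library had no Rad21 library from the same liver. The sample titles differ from this, since no mouse identifier in them is shared between a Rad21 and a CTCF library, and which libraries share a liver was not settled here. The Rad21 and the CTCF list each pool the reads of all libraries of that antibody, so no value has a spread between mice and no difference can be set against one. The tissue is whole liver, mostly hepatocytes by mass but with endothelial, immune, stellate and biliary cells as well. A Rad21 peak was selected on autosomes when it shared 0 bp with any CTCF peak, when its summit lay inside the span of a protein-coding gene, and when that summit lay more than 1 kb from every protein-coding transcription start. Of 67369 Rad21 peaks, 66091 lay on the 19 autosomes, 15118 of these (22.9%) had no CTCF peak and are called CNC (cohesin-non-CTCF) peaks, 8824 of those had their summit in a gene, and 7387 remained after the starts were left out. These 7387 gene-body CNC peaks made up 11.2% of autosomal Rad21 peaks and 48.9% of autosomal CNC peaks. Since the absence of a CTCF peak, the presence of a Rad21 peak and the position in a gene chose these regions, those properties are no findings. For comparison there were 19210 co-bound Rad21 peaks that met the same position rule but overlapped a CTCF peak, 5859 intergenic CNC peaks, and 1872 promoter CNC peaks with the summit within 1 kb of a coding start.

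Cohesin is a ring-shaped complex that holds DNA strands together and extrudes chromatin loops, and CTCF bound to its motif is the best known barrier at which moving cohesin halts. Cohesin is also found without CTCF, and in liver such sites are known to coincide with active enhancers that bind hepatocyte factors such as HNF4A, C/EBP, FOXA and ONECUT proteins. Many enhancers lie in introns, often of the gene they act on or of a neighbour.

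Sequences at the summit are shown first for the strongest regions and then for the liver gene examples that carry a word of a liver factor. Each run is 151 bases of mm9 centred on the Rad21 summit, read on the plus strand, and capitals mark matches on either strand. The 5 regions of highest fold follow, with capitals for the words of NFI (TTGGCA), nuclear receptors (AGGTCA), C/EBP (TTGCNNAA), forkhead factors (TGTTTAC or TGTTTGC), ONECUT (ATCAATA) and the CTCF core (AGNNGGCNC). They lie in introns of Lphn3 (chr5:81997965-81998115, intron 8, fold 10.5), which encodes the adhesion receptor latrophilin, of Ctnna2 (chr6:77025878-77026028, intron 10, fold 9.03), an alpha-catenin gene, of Tekt5 (chr16:10374801-10374951, intron 5, fold 8.84), a tektin gene, of Foxn3 (chr12:100664590-100664740, intron 1, fold 8.63), a forkhead repressor gene, and of Mipol1 (chr12:58500620-58500770, intron 8, fold 8.32). Introns are counted in the longest coding transcript.
Lphn3: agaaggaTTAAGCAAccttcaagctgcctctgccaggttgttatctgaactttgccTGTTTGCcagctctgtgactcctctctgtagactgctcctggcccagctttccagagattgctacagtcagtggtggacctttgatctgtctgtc
Ctnna2: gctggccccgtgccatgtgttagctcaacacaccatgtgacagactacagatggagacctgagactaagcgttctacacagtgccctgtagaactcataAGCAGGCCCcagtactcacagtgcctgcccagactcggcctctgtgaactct
Tekt5: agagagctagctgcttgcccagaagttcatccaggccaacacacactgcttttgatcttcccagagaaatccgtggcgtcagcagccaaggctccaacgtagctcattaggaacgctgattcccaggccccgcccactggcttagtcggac
Foxn3: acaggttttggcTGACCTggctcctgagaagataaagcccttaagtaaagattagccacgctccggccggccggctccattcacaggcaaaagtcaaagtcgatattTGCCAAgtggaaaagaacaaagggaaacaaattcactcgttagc
Mipol1: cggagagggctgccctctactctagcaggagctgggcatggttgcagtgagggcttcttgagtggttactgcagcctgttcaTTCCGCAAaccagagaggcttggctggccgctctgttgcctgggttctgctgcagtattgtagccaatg

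The next 6 runs show, for each of 7 words, the region of highest fold in a liver gene list that held the word within 50 bp of its summit, with capitals for that word alone. The region in Lipc, the gene of hepatic lipase, held both the extended nuclear receptor word AAAGGTCA, which is AGGTCA with a pair of A bases before it, and the NFI word (chr9:70711238-70711388, intron 1, fold 6.12). C8b encodes a complement protein of plasma (chr4:104452167-104452317, intron 2, fold 5.75), and Me1 encodes malic enzyme, which makes NADPH for lipid synthesis (chr9:86574082-86574232, intron 1, fold 4.83). Another Lipc region held the ONECUT word (chr9:70672150-70672300, intron 1, fold 3.48). Elovl6, a fatty acid elongase gene, held the HNF4 word TGGACTTTG (chr3:129267875-129268025, intron 2, fold 3.34), and Fmo1, a flavin monooxygenase gene, held the HNF1 word GTTAATNAT (chr1:164784268-164784418, intron 2, fold 2.74). A match to a word is a description of the sequence and not proof of a bound factor.
Lipc, extended nuclear receptor word and NFI: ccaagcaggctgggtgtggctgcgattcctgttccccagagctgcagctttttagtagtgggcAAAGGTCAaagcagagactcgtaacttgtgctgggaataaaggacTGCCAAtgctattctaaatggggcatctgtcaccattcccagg
C8b, C/EBP: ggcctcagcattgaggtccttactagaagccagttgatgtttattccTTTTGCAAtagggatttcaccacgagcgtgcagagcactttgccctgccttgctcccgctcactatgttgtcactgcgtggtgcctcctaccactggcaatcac
Me1, forkhead: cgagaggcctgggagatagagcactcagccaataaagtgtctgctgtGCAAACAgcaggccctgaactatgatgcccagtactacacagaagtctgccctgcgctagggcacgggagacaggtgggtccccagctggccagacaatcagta
Lipc, ONECUT: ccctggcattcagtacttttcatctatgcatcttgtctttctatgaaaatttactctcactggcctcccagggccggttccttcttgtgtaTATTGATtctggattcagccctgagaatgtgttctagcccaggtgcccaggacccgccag
Elovl6, HNF4: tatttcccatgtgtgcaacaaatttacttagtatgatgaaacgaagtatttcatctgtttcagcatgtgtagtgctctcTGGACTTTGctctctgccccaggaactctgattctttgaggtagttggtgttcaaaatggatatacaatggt
Fmo1, HNF1: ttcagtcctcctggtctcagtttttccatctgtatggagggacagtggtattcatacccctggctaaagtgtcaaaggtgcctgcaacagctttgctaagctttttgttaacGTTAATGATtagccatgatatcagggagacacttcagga

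Gene-body CNC peaks were weak among Rad21 peaks. The deposited fold, the ratio of fragments at the summit to the local background, had a median of 3.26 with quartiles of 2.87 and 3.77, against a median of 5.71 with quartiles of 3.92 and 10.3 at co-bound peaks in gene bodies. A gene-body CNC peak exceeded a co-bound peak in fold with a probability of 0.152 (95% interval 0.148 to 0.157, counting error over peaks only), and the Kolmogorov-Smirnov distance between the distributions was 0.562. The median was lower on 19 of 19 autosomes. These values come from the Rad21 readout that the selection used and are given as a description, without a test. Fragments at the summit, recovered from the fold and the −log10 p, had a median of 29 at a median background of 7.72, against 54 and 8.20 at co-bound peaks. Intergenic CNC peaks reached a slightly higher median fold of 3.52 at a lower background of 6.40, and promoter CNC peaks had a median fold of 3.15 at a background of 11.03. Of the gene-body CNC peaks, 1474 (19.95%, Wilson 95% interval 19.1 to 20.9%) had a score of at least 100 and 410 (5.55%) a fold of at least 5, against 74.1% and 58.1% of co-bound peaks. Widths had a median of 283 bp, against 420 bp.

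**Figure D1:**
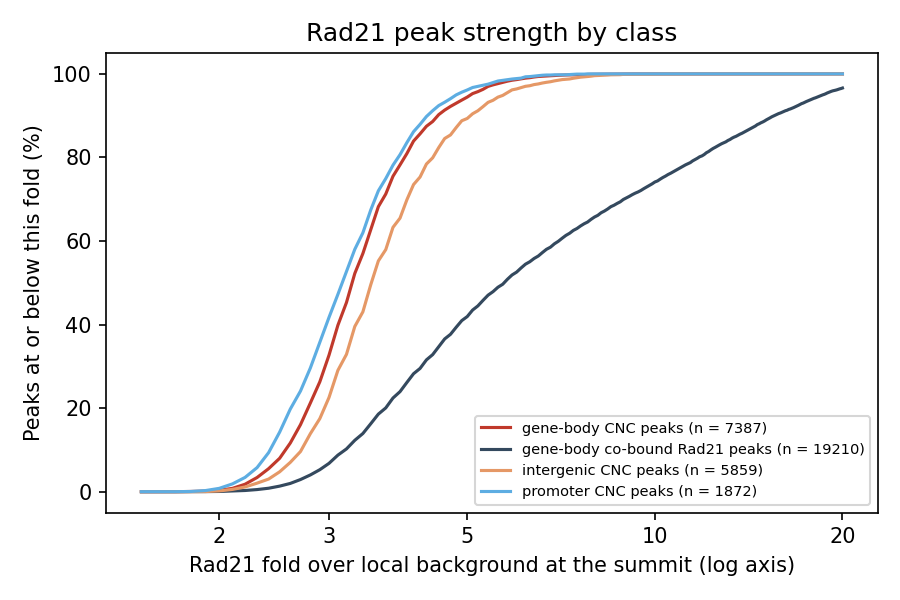
Cumulative share of Rad21 peaks (y axis, %) at or below each deposited fold over local background (x axis, log scale), with 1 line for each of 4 classes and their numbers of peaks in the legend. Gene-body CNC peaks, with a median of 3.26, rise close to the other CNC classes and far to the left of co-bound gene-body peaks, with a median of 5.71.

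The 25 regions of highest fold all lay in introns, with folds from 7.00 in Abca4, a retinoid transporter gene, to 10.5 in Lphn3. Lphn3 had 65 fragments at the summit over a background of 5.31, and its nearest CTCF peak lay 48229 bp away. Ctnna2 had 57 over 5.43, Tekt5 56 over 5.45, and Mipol1 51 over 5.25, all below the median background of the class. Foxn3 had 91 fragments over a background of 9.66 and the second highest score, 527. After these came Ddah1 (8.20), which encodes an enzyme that degrades asymmetric dimethylarginine, the orphan nuclear receptor gene Esrrg (8.14), the formin gene Fmn2 (7.93), the zinc finger factor gene Rreb1 (7.90), Sap130 (7.87), which encodes a Sin3 complex subunit, and the adrenergic receptor gene Adra1a (7.77). Akr1c20, an aldo-keto reductase gene, reached 7.67 with 46 fragments. By score the order differed. The highest score, 2941, belonged to a peak in Erbb3 with a fold of 2.58, the only one of the 7387 whose recovered fragment count was not whole, so its count is not read here. It was followed by Foxn3 (527), Gm16066 (516), Asap1 (481), Megf11 (476) and Ssbp3 (472).

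The limits of the selection cut through continuous values. Just outside 1 kb of a start and so included were peaks in Reep6 and Fscn1, both 1001 bp from a start with folds of 2.97 and 3.05, while peaks 1000 bp from the starts of Hnrnpa2b1 and Iqgap3, with folds of 3.18 and 3.01, were left out. A peak in Lrp6 whose CTCF peak began 2 bp away was included with a fold of 4.88, and a peak in Nceh1 that shared 1 bp with a CTCF peak was left out with a fold of 4.05. In all, 233 gene-body CNC peaks had a CTCF peak at most 100 bp away, with a median fold of 3.14, and 265 co-bound peaks shared at most 100 bp, with a median of 3.10. The median distance to the nearest CTCF peak was 3531 bp (quartiles 976 and 8525), 1877 peaks (25.4%) had one within 1 kb, and 5842 (79.1%) within 10 kb. Intergenic CNC peaks lay farther away, at a median of 4567 bp. Of the gene-body CNC peaks, 12.7% had an anchor of a TAD or intra-TAD loop, as the authors listed them, within 10 kb, against 13.9% of intergenic and 28.5% of promoter CNC peaks.

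Inside genes, 6766 peaks (91.6%, 90.9 to 92.2%) had the summit in an intron, 340 (4.60%) in a coding exon and 281 (3.80%) in an untranslated exon. Co-bound peaks lay in introns at 89.2%. Peaks without CTCF were denser in early introns. Counted per 100 kb of eligible sequence, that is gene body more than 1 kb from every coding start, intron 1 held 1.09 gene-body CNC peaks (exact Poisson 95% interval 1.05 to 1.14), intron 2 held 0.932 (0.881 to 0.985), and later introns 0.640 (0.618 to 0.662). The intervals of co-bound peaks overlapped, with 2.06 (2.004 to 2.12), 2.03 (1.958 to 2.11) and 2.02 (1.99 to 2.06). By distance from the annotated gene start, the density of gene-body CNC peaks was 0.838 from 1 to 5 kb, 1.09 from 10 to 25 kb (1.03 to 1.14) and 0.430 beyond 200 kb (0.402 to 0.460). That of co-bound peaks went from 2.63 through 2.76 to 1.19.

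The peaks lay in 3267 genes of 19495 with eligible sequence, or 16.8%, while co-bound peaks lay in 8061 genes, or 41.3%. A single peak was found in 1769 genes, 281 genes held 5 to 9, and 73 held 10 or more. Peaks in overlapping genes were counted for each, which 164 peaks were. The largest number, 85, fell in Gm20388, a gene model of 4435 kb that spans many others, and 40 of its peaks lay in no other gene. Next came Fgfr2 with 26, a growth factor receptor gene annotated over 3009 kb, Zbtb20 with 22, a repressor of alpha-fetoprotein, Ptprg and Lpp with 21 each, and Arid1b, a chromatin remodeller subunit, with 20. Thrb, the thyroid hormone receptor beta of liver, held 19, the kinase gene Prkce 18, and the heparan sulfate enzyme gene Ext1, Mob3b and the kinase gene Sik3 17 each. Such counts grow with length. Per 100 kb of eligible sequence Fgfr2 held 0.893 and Zbtb20 2.93, but Mob3b 8.28, Sik3 8.24, Daam1 9.98 and Lipc, the shortest of these genes at 154 kb, 10.1. Lipc had no Rad21 or CTCF summit within 1 kb of its coding starts and carried 15 peaks without CTCF and 8 with it.

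The smaller genes show the values behind such counts. In Lipc the folds ran from 2.55 to 6.12 over positions from 9.30 to 139.5 kb past the gene start, and the highest values, 4.61, 5.31, 6.12 and 5.24, stood at 12.4, 53.8, 88.7 and 117 kb. Igf1, the gene of the growth hormone-responsive factor secreted by liver, held 8 peaks without CTCF between 36.4 and 68.8 kb, with folds from 2.67 to 4.26, and 1 co-bound peak at 27.1 kb. Pcx, the gene of pyruvate carboxylase, the first enzyme of gluconeogenesis from pyruvate, held 10 with folds from 2.47 to 5.07. Nr5a2, the nuclear receptor gene LRH-1, held 14 with folds from 2.19 to 5.22, and Atp8b1, a lipid flippase gene of the bile canaliculus, held 10, all in the first 61.1 kb of its 132 kb. Thrb held 19, with folds from 2.51 to 5.38, between 20.6 and 252 kb past its start, and Zbtb20 held 22, with folds from 2.68 to 5.99, between 71.3 and 674 kb. In Foxn3 the peaks formed a group of 8 between 2.64 and 31.3 kb, which held the folds of 8.63 and 5.70, and another of 6 from 183 kb on, with 1 between them at 54.9 kb. Of the 3267 genes, 672 held no co-bound peak in their eligible sequence. Among these were Cstf3 and Lamc1 with 6 peaks without CTCF each and Dgat2, which makes triglyceride, and Lcor with 5 each. The folds of the peaks in Dgat2 ran from 2.01 to 3.27, at 17.8 per 100 kb. All 4 of these genes had a co-bound Rad21 peak within 1 kb of a coding start.

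**Figure D2:**
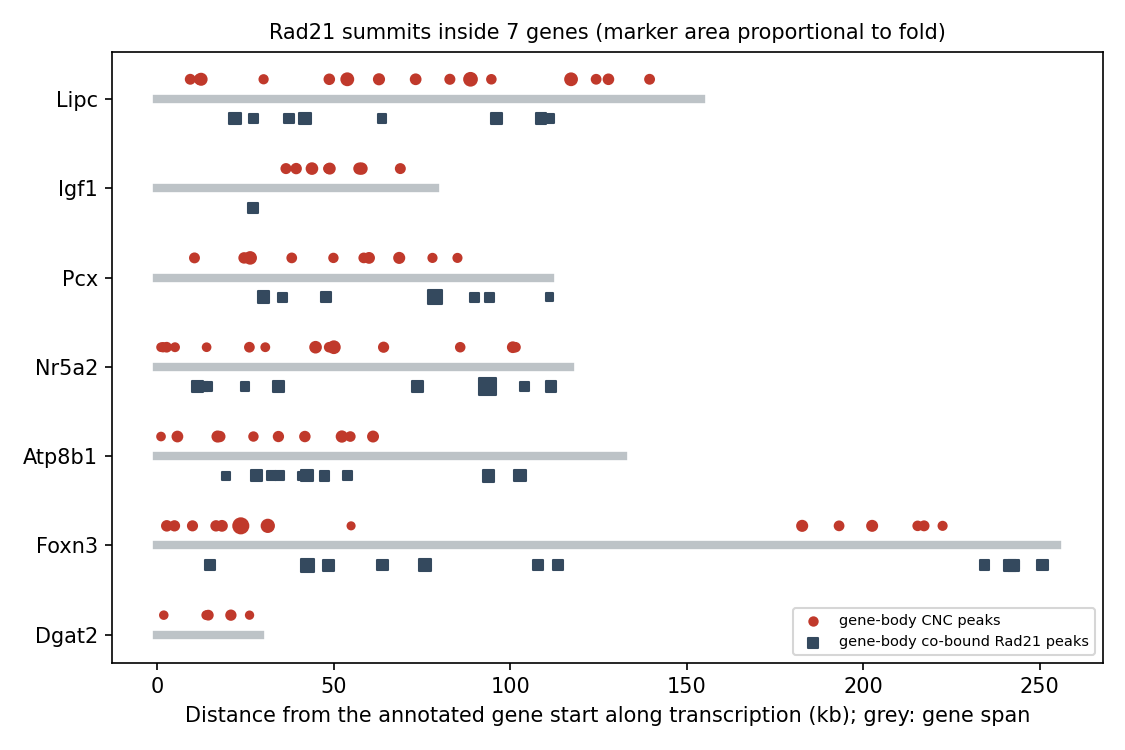
Rad21 summits along 7 genes by distance from the annotated gene start in the direction of transcription (x axis, kb), with circles above each grey gene span for peaks without CTCF, squares below it for co-bound peaks, and marker area proportional to fold. Lipc carries 15 circles along its length, Igf1 8 circles and 1 square, and Dgat2 5 circles and no square.

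Some peaks also lay near each other. Other peak classes were not joined in this way, and whether the chains exceed what peak density alone gives was not tested. With summits at most 12.5 kb apart joined into chains, 4000 peaks (54.1%) stood alone and 808 (10.9%) fell in 169 chains of 4 or more. The longest chain had 10 peaks over 60.1 kb in Atp8b1. Chains of 9 lay in Ppfibp1 and Pcx, and those of 8 included chains in Foxn3, Igf1, Nav2, Col18a1 and Iqgap2, the last of these over 48.5 kb.

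Genes of hepatocyte function held these peaks at several times the density of all genes. In 6 lists together, of plasma proteins, bile acid and cholesterol, lipid and glucose, amino acid and urea, and xenobiotic metabolism and of liver transcription factors and nuclear receptors, 138 of 244 genes (56.6%) held at least 1, beside the 16.8% of all genes. Their 382 peaks came to 3.55 per 100 kb (3.20 to 3.92), against 0.814 (0.796 to 0.833) over all protein-coding genes, a ratio of 4.36. Co-bound peaks were denser there too, but by less, at 4.42 (4.03 to 4.84) against 2.12 per 100 kb. The share of genes with a peak was above 16.8% in other lists too. It was 28.0% (23 of 82) in the neuronal and muscle lists together, at 0.171 peaks per 100 kb. The endothelial list had 9 of 18, the clock list 9 of 20 and the hormone and growth factor list 23 of 36. Lower shares were found in the Kupffer cell and leukocyte (13.6%), stellate and biliary (5.26%) and ribosome and proteasome (0%) lists. The part of gene length in these shares was not tested. The lists were compiled with earlier results of these data known, and no set test was run. The local background moved with the peak counts. Its median was 11.3 fragments at the peaks in the 6 lists, 7.62 in other genes and 5.29 in the neuronal and muscle lists, while the median fold was 2.96, 3.27 and 3.43. The part of the background in the counts was not tested. Among peaks with a score of at least 100 the ratio was 4.50.

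The 6 lists lay close to each other, from 3.18 per 100 kb for plasma proteins (2.31 to 4.27) to 4.09 for lipid and glucose metabolism (3.15 to 5.24), with overlapping intervals. Among peaks with a score of at least 100 they spread further, from 2.99 times the density of all genes for amino acid and urea genes to 6.55 for bile acid and cholesterol genes and 6.78 for lipid and glucose genes. These ratios rest on fewer peaks and carry no interval, so whether the wider spread exceeds counting error was not tested. Of 61 plasma protein genes, 29 held a peak, with 5 in Apoh, 4 each in C8a, a complement gene, and Serpinc1, the antithrombin gene, and 2 in Alb, the albumin gene. Bile acid and cholesterol genes held 49 peaks in 15 of 28 genes, with 15 in Lipc, 6 in Scarb1, the HDL receptor gene, and 4 in Abca1, a cholesterol exporter gene. Lipid and glucose genes held 63 in 22 of 40, with 10 in Pcx, 6 in Elovl6, and 5 in Acsl1, which activates fatty acids, and in Dgat2. Amino acid and urea genes held 35 in 18 of 29, among them the amino acid transporter gene Slc38a4 with 6 and Aldh1l1, an enzyme of folate metabolism, with 4. Xenobiotic genes held 36 in 22 of 39, with 4 in the export pump gene Abcc2 and 3 each in Adh1 and Ephx1, the genes of alcohol dehydrogenase and epoxide hydrolase. Transcription factor genes held 155 in 32 of 47, with 22 in Zbtb20, 19 in Thrb, 14 in Nr5a2 and 11 in Nfia, whose product binds the NFI word. Some genes strongly used by hepatocytes held no peak, and they are named here after their values were seen. Apob, which encodes the apolipoprotein of VLDL, had 0 without CTCF and 1 with it, Cps1, which encodes the first enzyme of the urea cycle, had 0 and 2, and the bile acid synthesis gene Cyp7a1 had 0 of either kind in 9.02 kb of eligible sequence. Cebpa, with 1.63 kb of eligible sequence, also had 0 of either kind.

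Genes of hormone and growth factor signalling held 3.57 per 100 kb (2.79 to 4.50), with 8 in Igf1, 6 in the prolactin receptor gene Prlr and in Smad3, and 5 in Met, the hepatocyte growth factor receptor gene. The circadian clock list stood apart from these, at 1.63 (1.04 to 2.42) without CTCF but 5.01 (3.94 to 6.29) with it, and 14 of its 24 peaks lay in Rora alone. Genes of other cells gave lower densities than the hepatocyte lists. Sinusoidal endothelial genes held 1.17 per 100 kb (0.653 to 1.92), with 5 of 15 in the scavenger receptor gene Stab2. This was 1.43 times the 0.814 of all genes, a level inside the interval. Kupffer cell and leukocyte genes held 0.226 (0.0733 to 0.526), which is 5 peaks, 2 each in Cd4 and Ebf1 and 1 in Runx1. Stellate and biliary genes held 0.135 (0.0164 to 0.489), which is 2 peaks, both in Pkhd1. Neuronal genes held 0.144 (0.109 to 0.188) and striated muscle genes 0.381 (0.229 to 0.594), led by Grm8 with 14 and Pde4dip with 6. The 51 neuronal genes had 38.2 Mb of eligible sequence, against 10.8 Mb in the 244 hepatocyte genes. Over all genes the density was 0.430 beyond 200 kb from the gene start, and the part of gene length in the neuronal value was not tested. Ribosome and proteasome genes held 0 in 0.417 Mb, with an upper limit of 0.885 per 100 kb by the exact Poisson interval. With fewer cells of a type in whole liver, a site bound in that type alone would give less signal, and lower occupancy in those cells and fewer such cells cannot be told apart here.

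**Figure D3:**
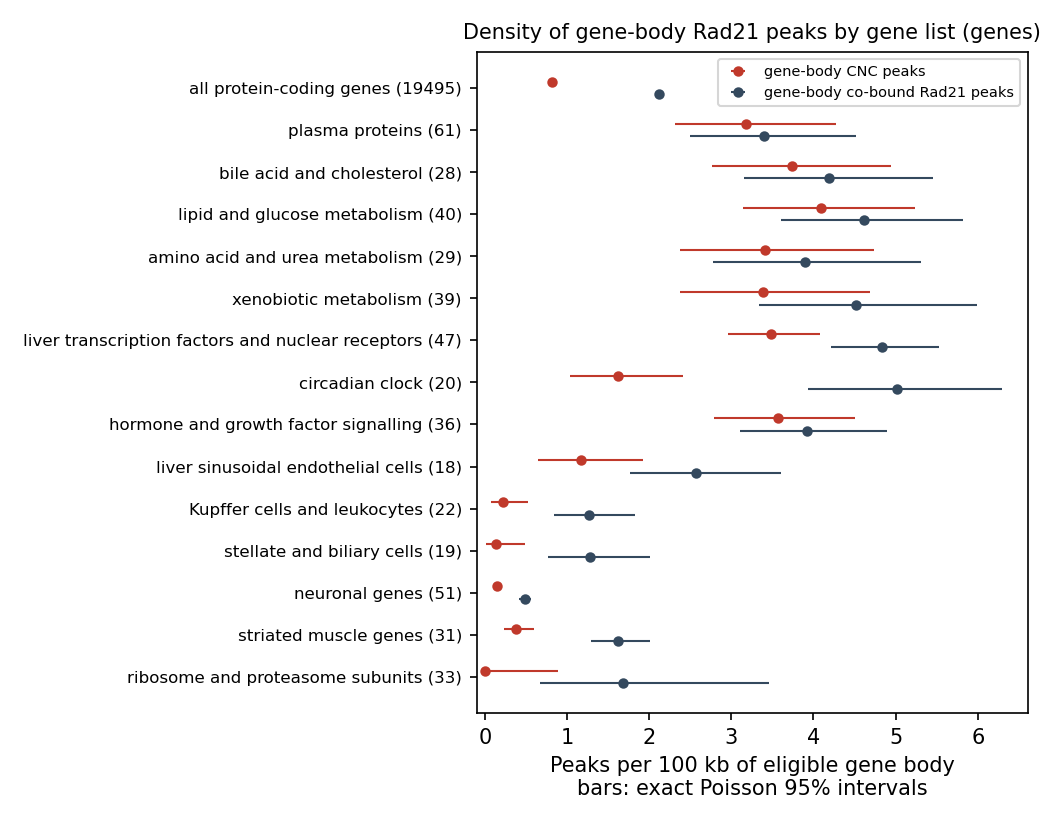
Peaks per 100 kb of eligible gene body (x axis) for all protein-coding genes and 14 gene lists (y axis, with the number of genes in parentheses), as points with exact Poisson 95% intervals, in red for peaks without CTCF and in dark blue for co-bound Rad21 peaks. The red points of the hepatocyte lists lie between 3.18 and 4.09, and those of neuronal, immune and stellate lists below 0.25.

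Gene-body CNC peaks went with Rad21 at the gene's own start. In 10485 genes with a co-bound Rad21 summit within 1 kb of a coding start, gene bodies held 1.15 peaks without CTCF per 100 kb (1.12 to 1.18), and in 577 genes whose start held CNC peaks only, 1.23 (1.10 to 1.38). In 989 genes with a CTCF summit but no Rad21 summit at the start it was 0.308 (0.266 to 0.355), and in 7436 genes with neither, 0.264 (0.246 to 0.284). The first value exceeded the last on 19 of 19 autosomes. Co-bound peaks in gene bodies gave 2.61, 3.05, 1.54 and 1.25. Gene size moved with these classes, with a median eligible length of 23.3 kb in the first and 8.95 kb in the last, and its part was not tested.

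The sequence around the summits was not itself used to choose the peaks, and it was compared over 201-base windows with co-bound peaks and with flanking windows centred 2 kb to either side that held no peak and no start. There were 18 words searched on both strands. Besides those given above they were the words of STAT5 (TTCNNNGAA), AP-1 (TGANTCA), PAR bZIP factors (the D-box, TTATGNAA), the E-box (CACGTG), ROR and REV-ERB (TNGGTCA), the GC box (GGGCGG), ETS factors (CCGGAAG) and GATA factors (AGATAAG). Every AAAGGTCA match holds AGGTCA, and TNGGTCA matches can hold it, so these counts overlap. A difference of shares was called when its Newcombe 95% interval left out 0, and the interval covers counting over windows, not mice. Of the 18 words, 13 (72.2%) were more frequent than at co-bound peaks and 1 (5.56%) less frequent, and 14 (77.8%) were more frequent than in the flanks and 0 (0%) less frequent. The NFI word was found in 18.5% of windows (1370 of 7387), against 12.3% of co-bound windows and 9.55% of flanks. It stood 6.25 points above co-bound peaks (5.26 to 7.26) and 9.00 points above flanks (7.99 to 10.02), each on 19 of 19 autosomes, and 12.01% of all autosomal Rad21 windows held it. The nuclear receptor word AGGTCA was found in 19.9%, 5.29 points above co-bound peaks (4.26 to 6.34) and 7.33 above flanks (6.27 to 8.41), against 14.4% of all Rad21 windows.

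Words of hepatocyte factors were more frequent as well. The C/EBP word was found in 11.1% of windows, 2.45 points above co-bound peaks (1.64 to 3.28), on 17 of 19 autosomes. The forkhead words TGTTTGC and TGTTTAC were found in 6.96% and 4.32%, above co-bound peaks by 1.997 points (1.36 to 2.67) and 1.42 points (0.914 to 1.957). The ONECUT word was found in 3.76%, 2.30 times its share of 1.63% at co-bound peaks and 1.76 times its share of 2.13% in flanks. Its share at co-bound peaks was thus below that in flanks. The extended nuclear receptor word AAAGGTCA was found in 2.67%, 2.05 times its share of 1.30% at co-bound peaks, and the HNF4 word TGGACTTTG in 1.15%, which was 1.77 times its share of 0.651% there and 4.51 times its share of 0.255% in flanks. Of all autosomal Rad21 windows, 8.72% held the C/EBP word, 4.83% and 2.86% the forkhead words, 1.89% the ONECUT word, 1.42% the extended nuclear receptor word and 0.707% the HNF4 word. The HNF1 word, at 0.785%, stood above co-bound peaks by 0.311 points (0.104 to 0.556) but was not distinguished from flanks (0.207 points, -0.0215 to 0.463). Neither STAT5 (0.385 points, -0.218 to 1.02) nor ETS (0.149 points, -0.143 to 0.475) words were distinguished from co-bound peaks. In shorter windows, with 50 bp on either side of the summit, the STAT5 word stood 0.553 points above co-bound peaks and was distinguished, and the HNF1 word, 0.120 points above, was not. The contrast with co-bound peaks was smaller for most words among peaks of like strength. With scores from 50 to 100 in both classes, 7 of the 18 words were more frequent, the HNF4 word (0.0353 points), the forkhead word TGTTTAC (0.190 points) and the HNF1 word (0.260 points) were no longer distinguished, and the NFI word stood 4.31, the nuclear receptor word 3.96 and the ONECUT word 1.10 points above. The C/EBP word changed little, at 2.31 points, and the STAT5 word stood higher, at 0.840 points, but was not distinguished. A set of 9 liver factor words held those of NFI, nuclear receptors (AGGTCA and AAAGGTCA), C/EBP, forkhead factors (TGTTTGC and TGTTTAC), ONECUT, HNF4 and HNF1. It left out STAT5 and the D-box, at -0.508 and -0.408 points to flanks and not distinguished, and TNGGTCA, 2.32 points above flanks. With AAAGGTCA not counted again beside AGGTCA, 50.2% of windows held at least 1 of the 9 (49.1 to 51.3%) and 13.6% at least 2. These shares were 37.5% and 7.62% at co-bound peaks and 33.1% and 5.51% in flanks.

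Intergenic CNC peaks held at least 1 of the 9 words in 54.1% of windows. Compared with them, 1 of the 18 words (5.56%) was more frequent at gene-body CNC peaks and 7 (38.9%) less frequent. The more frequent one was the CTCF core, by 1.92 points (0.750 to 3.07). The less frequent ones were the words of nuclear receptors, C/EBP, HNF4, HNF1, STAT5, the D-box and the forkhead word TGTTTAC. The C/EBP word differed by -2.97 points (-4.12 to -1.84) and the HNF4 word by -0.488 points (-0.908 to -0.0882). The NFI word was not distinguished (0.488 points, -0.841 to 1.81).

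The CTCF core word ran the other way. Since the peaks were selected for lacking a CTCF peak and co-bound peaks for having one, its difference between these classes follows the selection and is given as a description, also in the count of 1 word above. It was found in 14.3% of windows at gene-body CNC peaks and in 31.3% at co-bound peaks, a difference of -17.0 points (-18.02 to -15.96), and none of the 19 autosomes had the higher share at gene-body CNC peaks. It still stood 4.73 points above the 9.58% of flanks (3.80 to 5.68). GC content moved with these shares, with a median of 51.2% in the windows, 50.7% at co-bound peaks and 45.3% over the flanks of gene-body CNC peaks. Among windows of 45% to 55% GC on both sides, an alternative chosen after seeing the data, the CTCF core stood 1.27 points above flanks and was no longer distinguished, nor were the GC box and ETS words, whereas the NFI word stood 8.74, the nuclear receptor word 5.24 and the C/EBP word 5.51 points above, and the HNF1 word, 0.401 points above, became distinguished. Against co-bound peaks of the same GC band the C/EBP word stood 1.48 points above, less than the 2.45 points over all windows, and the NFI and nuclear receptor words stood 5.40 and 4.80 points above. The GC box GGGCGG, found in 22.9% of promoter CNC windows, was found in 5.35% at gene-body CNC peaks.

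**Figure D4:**
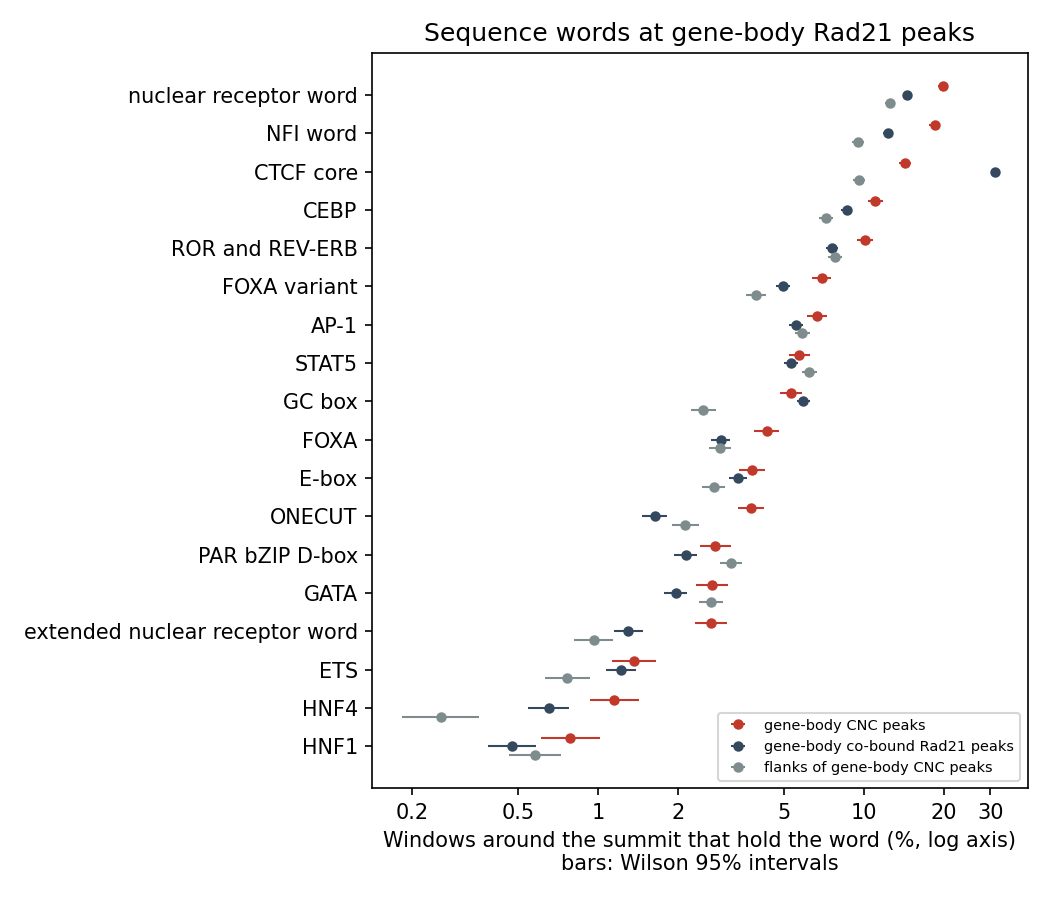
Share of 201-base windows that hold each of 18 words (x axis, %, log scale; y axis, factor whose word was searched), as points with Wilson 95% intervals, in red for gene-body CNC peaks, in dark blue for co-bound gene-body peaks and in grey for flanks of the CNC peaks. The red points lie to the right of the blue ones for the NFI word (18.5% against 12.3%) and the ONECUT word (3.76% against 1.63%), and to the left for the CTCF core (14.3% against 31.3%).

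Words gathered over the width of the peak rather than at one place. The NFI word had 55.9 matches per 1000 windows in the first 50 bp after the summit and 56.0 in the next, against 23.4 to 31.8 in the bins more than 250 bp away. The nuclear receptor word had 60.4 from 100 to 50 bp before the summit and 37.4 at the outer bin after it. The C/EBP word had 26.8 and 29.6 in the bins that touch the summit, below the 33.3 of the bin from 50 to 100 bp after it. At co-bound peaks the CTCF core had 123 and 126 matches per 1000 windows beside the summit and 29.8 from 200 to 150 bp before it, while at gene-body CNC peaks it had 45.8 and 44.0 beside the summit.

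**Figure D5:**
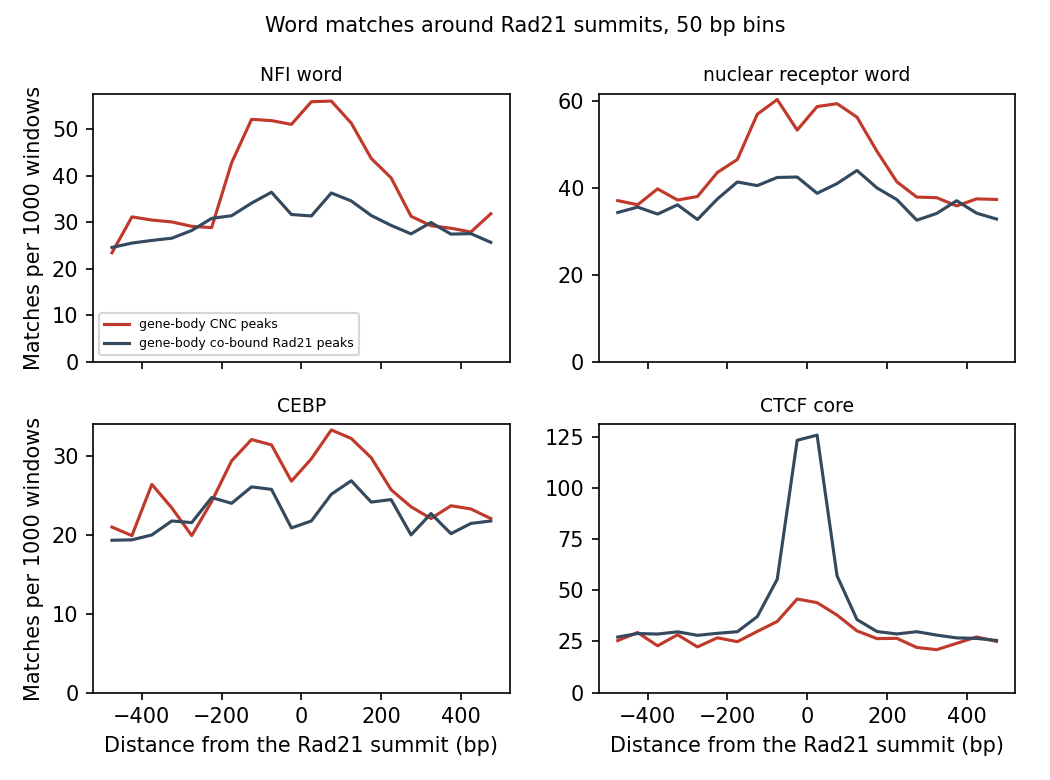
Matches per 1000 windows (y axis, from 0) in bins of 50 bp by distance from the Rad21 summit (x axis, bp) for the NFI, nuclear receptor, C/EBP and CTCF core words, in red for gene-body CNC peaks and in dark blue for co-bound gene-body peaks. The NFI and nuclear receptor lines of gene-body CNC peaks rise to 56.0 and 60.4 over a broad zone, and the CTCF core line of co-bound peaks reaches 126 in a narrow one.

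A search without preset factors gave related words. Of 860 words of 8 letters found in at least 80 of the 7387 windows of 101 bases, AAAGGTCA had the highest ratio to co-bound peaks, 2.47, at 1.30% of windows, and GCTTGGCA, which contains the NFI word, the next, 2.30. Against flanks the highest ratios were 4.29 for CTGGCAGC and 4.25 for GCTTGGCA, followed by CTGCCAAG with 3.90, which holds the NFI word on the other strand. At co-bound peaks CTGGCAGC was about as frequent, with a ratio of 1.03. The floor of 80 windows was set on gene-body CNC peaks alone. A word common at co-bound peaks or in flanks but rarer than this at gene-body CNC peaks could not be ranked.

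Stronger peaks held some of these words more often. In 4 groups of gene-body CNC peaks of nearly equal size, from the lowest to the highest fold, the share with the ONECUT word was 2.60%, 3.36%, 3.85% and 5.25%, and the intervals of the lowest (1.97 to 3.43%) and highest (4.32 to 6.37%) groups did not overlap. The forkhead word TGTTTGC went from 5.14% (4.23 to 6.25%) to 9.04% (7.82 to 10.4%) and the NFI word from 16.4% (14.7 to 18.1%) to 20.2% (18.5 to 22.1%). The CTCF core went from 16.4% (14.8 to 18.2%) to 11.6% (10.3 to 13.2%), and the HNF4 word stood at 1.14% in both. Other values moved with fold. In the lowest group the median background was 12.1 fragments and the nearest CTCF peak lay at a median of 1717 bp, and in the highest group these were 6.57 fragments and 6000 bp. Within the class, the 382 peaks in hepatocyte list genes were not distinguished from the other 7005 in any of 11 words compared. The NFI word stood at 15.4% against 18.7% (difference -3.27 points, -6.68 to 0.796) and the HNF4 word at 2.09% against 1.10% (0.995 points, -0.0697 to 2.99).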

How the data were processed

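The data were ChIP-seq libraries from male mouse liver, 3 for Rad21 and 4 for CTCF. Per the study's methods and labels, the authors merged the reads of each factor, mapped them to mm9 with Bowtie2, called peaks with MACS2 and removed blacklisted regions and peaks of PCR duplicates alone. Each deposited score is a whole number equal to 10 times −log10 of the q-value. As the authors deposited it, fold is the ratio of fragments at the summit to those of the local background after adding 1 to each. The deposited −log10 column used here holds the summit p-value. The authors' list of CTCF sites gave the anchors. The lists hold no read totals, so the depth of single libraries was not used here, and precision comes from numbers of peaks.

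Here, summit fragments and background were recovered from fold and −log10 p, whole to within 0.05 at 99.99% of gene-body CNC peaks. Genes came from GENCODE vM1 on NCBIM37 (mm9), with 45981 starts of 22380 protein-coding genes. Densities used gene body more than 1 kb from any start. Shares carry Wilson, differences Newcombe and densities exact Poisson 95% intervals, which cover counting error only. No p-value was computed, since peaks are not replicates. Scripts were tested on simulated data and run with SciPy 1.17.1, NumPy 2.4.6 and pandas 2.3.3 under Python 3.11.15, with plots from Matplotlib 3.10.9. The selection, words and gene lists were chosen with earlier results of these data known. Of 476 listed symbols, 469 were found on autosomes. Text names genes with the most peaks or the strongest peaks, up to 4 per list, and those beside the limits of the selection. Some items are not reported here.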

Additional observations from a re-analysis of the deposited data

Results flagged for a closer look

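Chromosome X, which the selection left out, held 40 CNC peaks among 332 gene-body Rad21 peaks, or 12.05% (Wilson 95% interval 8.97 to 16.0%), below the 27.8% of the autosomes (27.2 to 28.3%), where single chromosomes ranged from 23.9% on chromosome 7 to 32.0% on chromosome 16. The median fold of the 40 peaks was 3.43.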

How the results depend on the processing

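The number of gene-body CNC peaks was 5510 without any CTCF peak within 1 kb, 10090 when only CTCF summits within 100 bp counted as shared, 6861 and 7052 with starts excluded to 2.5 kb or for all annotated genes, and 1474 at a score of at least 100. The words more frequent than at co-bound peaks numbered 12 to 14 under every alternative except scores from 50 to 100 in both classes, which left 7 from fewer peaks; there the AP-1 word turned to -0.0699 points. Words less frequent than at co-bound peaks numbered 2 with 50 bp windows and 2 with no CTCF peak within 1 kb, where the GC box joined the CTCF core. Words less frequent than in flanks numbered 2 with flanks at 5 kb, STAT5 (-0.684 points) and the D-box (-0.775 points). At a score of at least 100 there was 1, the D-box (-1.04 points). In the main comparison with flanks, STAT5 (-0.508 points, -1.17 to 0.173) and the D-box (-0.408 points, -0.877 to 0.0817) were not distinguished. The D-box word turned to 0.642 points above flanks at 45% to 55% GC. The probability that a gene-body CNC peak exceeds a co-bound one was 0.154 by score and 0.214 by pileup. The density ratio of the 6 hepatocyte lists together stayed between 4.15 and 4.50, without Gm20388 too. GC windows and the run without Gm20388 were chosen after seeing the data. Leaving out a library was not possible, since the lists pool them. No paired analysis was possible because the lists pool all libraries of an antibody and hold no value of a single library, and the methods, by which most CTCF libraries share a liver with a Rad21 library, and the sample titles, which share no mouse identifier between antibodies, disagree on the pairing.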
